A study of Mus musculus with 16 samples.

Results

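The comparison concerns paclitaxel (PTX) and vehicle in sorted dorsal root ganglion (DRG) cells of male mice with a floxed lymphotoxin-beta receptor gene, Ltbr. It took the 4 libraries titled PTX LTbR-fl/fl and the 4 titled LTbR-fl/fl whose treatment label is water, 8 of the 16 libraries of the series. The mice were 8 to 16 weeks old. PTX mice had received 6 mg/kg PTX into the abdominal cavity 3 times at intervals of 2 days, and vehicle mice water. In both groups the tracer WGA-488 went into the paw at day 16 and the lumbar ganglia were taken at day 18 after the last injection, and cells that carried the tracer were sorted. Neither group has Cre in its label, so both carry the floxed allele alone. The series' design text gives 3 mice for each group where the labels list 4 libraries, and the treatment text attached to the vehicle libraries also describes PTX, so the groups follow the titles and the treatment label. Whether a library stands for 1 mouse or for pooled mice is not stated in the sources used here. The spread behind each p-value is therefore that between libraries and may in part be technical. It was estimated over all 16 libraries, with the rest of the series, titled Nav1.8/LTbR CKO (knockout), in the same model.

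Paclitaxel binds beta-tubulin and stabilises microtubules, the tracks on which kinesin and dynein motors move cargo along axons. Sensory neurons of the DRG have long axons and lie outside the blood-brain barrier, and a painful neuropathy of the hands and feet is a common side effect of the drug. In the ganglion each neuronal cell body is wrapped by satellite glial cells, its axon is accompanied by Schwann cells, and fibroblasts, macrophages and vessels fill the space between them.

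The libraries held 9225311 to 11668007 counts on genes and a count for 12347 to 15418 of 22609 genes. Values of a group are listed below in the order of replicates 1 to 4. In both groups replicates 1 and 2 carry an earlier date in the title than replicates 3 and 4 (24 and 25 September for PTX, 1 and 2 October for vehicle), so date and treatment cannot be told apart, and the labels do not say what the dates mark. Marker genes shared by sensory neurons took 2.32, 2.15, 1.20 and 1.26 percent in the PTX libraries and 0.246, 0.0985, 0.487 and 0.766 percent in the vehicle libraries, without overlap. Satellite glial markers took 0.515, 0.905, 0.764 and 1.77 percent in the PTX libraries and 2.66, 2.43, 4.17 and 3.38 percent in the vehicle libraries, myelinating Schwann cell markers 0.239, 0.362, 0.234 and 0.226 percent in the PTX libraries and 0.642, 0.666, 1.15 and 1.01 percent in the vehicle libraries and fibroblast markers 0.0385, 0.0611, 0.104 and 0.105 percent in the PTX libraries and 0.430, 0.389, 0.483 and 1.12 percent in the vehicle libraries, and none of these lists overlapped between the groups. Macrophage markers took 0.0730, 0.129, 0.956 and 0.576 percent in the PTX libraries and 1.76, 1.87, 0.826 and 1.34 percent in the vehicle libraries, with overlap. Neutrophil markers took 0.569, 1.07, 10.6 and 5.58 percent in the PTX libraries and 18.5, 17.6, 8.59 and 8.84 percent in the vehicle libraries, again with overlap, and S100a8, a calcium-binding protein of neutrophils, was the most abundant gene in 5 of the 8 libraries. Each marker of neurons, satellite glia, macrophages and neutrophils in these lists had counts in both groups, while Mobp among the Schwann cell markers and Dpt among the fibroblast markers had no count in any of the 8. In bulk RNA such as this, fewer cells of a type and less RNA per cell cannot be told apart. The plot of marker shares shows these values. Their part in the gene results below was not tested.

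**Figure D1:**
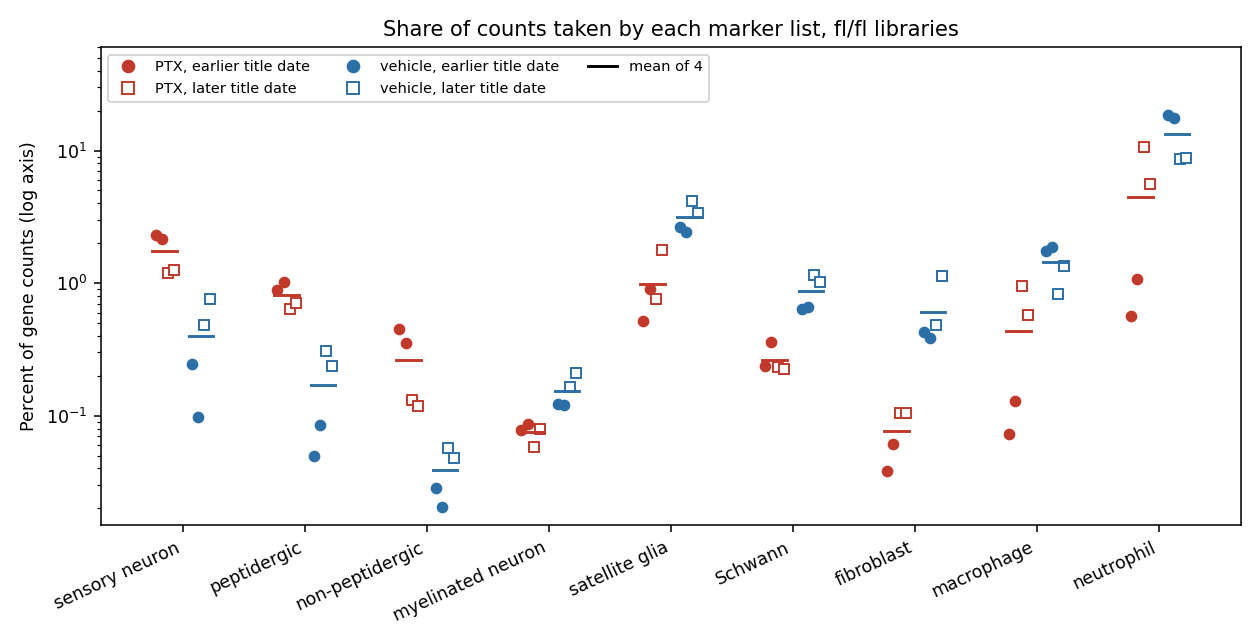
Percent of all gene counts (log axis) taken by 9 marker lists in each of the 8 fl/fl libraries, with lines at the mean of 4. PTX libraries (red) lie above vehicle libraries (blue) for sensory neuron markers, at 1.20 to 2.32 percent against 0.0985 to 0.766 percent, and below them for satellite glial, Schwann cell and fibroblast markers. Neutrophil markers are lowest in the 2 PTX libraries of the earlier date.

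Of 14200 genes tested, 704 differed between PTX and vehicle at an edgeR adjusted p under 0.05 (4.96 percent). After PTX 454 were higher (3.20 percent) and 250 lower (1.76 percent). The adjusted p comes from the quasi-likelihood test of edgeR (two-sided, Benjamini-Hochberg over the genes tested), and changes are log2 fold changes ± standard error with 4 libraries in each group. Levels are in CPM, that is, counts relative to the effective size of their library, and a gene is said to rise or fall where it passed this threshold. The calls leaned on the earlier PTX date. With PTX replicates 1 and 2 alone against the 4 vehicle libraries 758 genes passed (5.05 percent), and with PTX replicates 3 and 4 alone 5 passed (0.0334 percent). In these fits, and in those without a single library, the knockout libraries stayed in the model and added to the estimate of spread. Among those 5 were Dgkh, L1cam, Plekhb1 and Mbp. Without a single library the count ran from 177 (PTX replicate 1) to 845 (PTX replicate 4), with 206 without PTX replicate 2, 263, 307 and 449 without vehicle replicates 1, 2 and 3, and each of the remaining values within 1.5 times of 704. Scaling by RLE gave 688 (4.85 percent) and the 8 libraries fitted without the rest of the series 475 (3.58 percent). Counts over the gene lists below moved with the fit as well and are given for the 8 libraries alone where a count of 2 or more moved by more than 1.5 times. They stand beside the shares over all genes, 3.20 percent higher and 1.76 percent lower. With PTX replicates 3 and 4 alone, the lists with a member that passed were the Schwann cell markers (2) and the adhesion genes (1). PTX and vehicle libraries had separate ranges in 2674 genes (18.8 percent), with PTX above vehicle in 1567 (11.0 percent) and below it in 1107 (7.80 percent). Of the 114 genes given with values below, 99 passed, and 52 of these passed with each of the 8 libraries left out in turn. The others are listed with the libraries on which their call rested. None of the 99 changed direction under any alternative setting in which it was fitted, 19 for each gene but Cacna1i and Sst, which had 18.

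**Figure D2:**
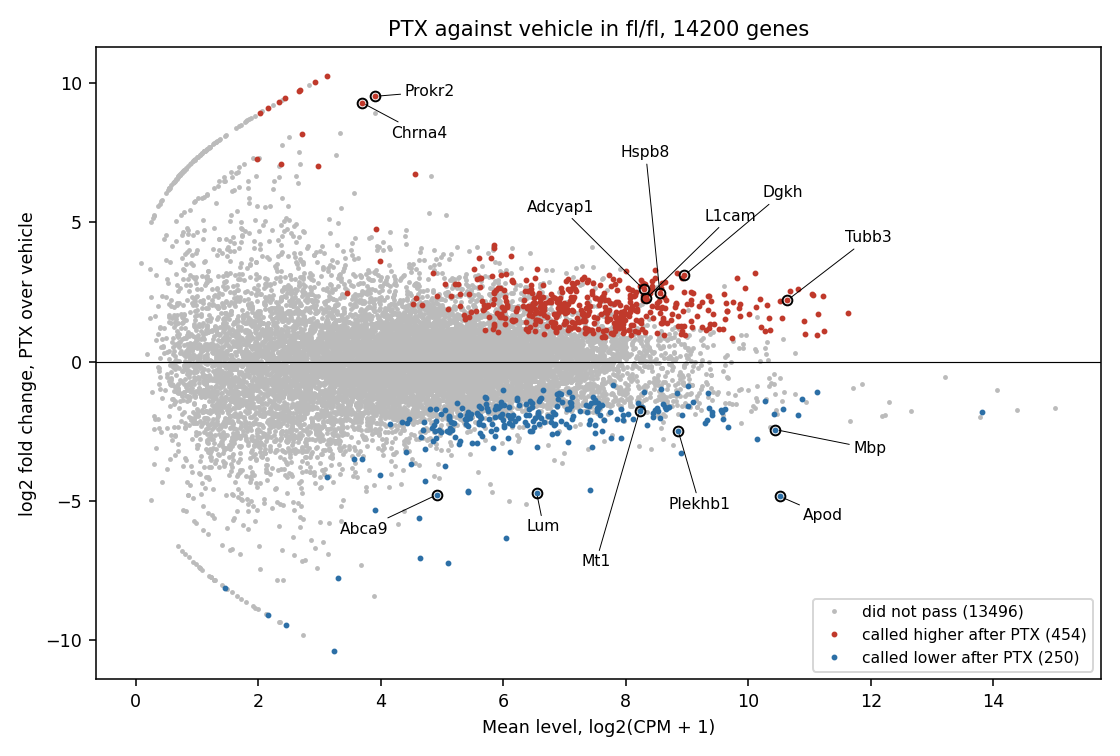
log2 fold change of PTX over vehicle against mean level, as log2(CPM + 1), for 14200 genes. Red points (454) were called higher and blue points (250) lower after PTX. Dgkh, L1cam, Adcyap1 and Tubb3 lie above 0, and Plekhb1 and Mbp below it. Circled points with a line are named genes, and the curved outer edges are genes with no counts in one of the groups.

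The genes with the smallest p-values among those that rose included genes of neuronal signalling, adhesion and membrane traffic. Dgkh encodes diacylglycerol kinase eta, which removes the second messenger diacylglycerol. It stood at 1292, 1096, 601 and 569 CPM after PTX and 65.7, 87.1, 149 and 114 CPM after vehicle and rose by 3.10 ± 0.36 (edgeR adjusted p = 0.00126). L1cam, a cell adhesion molecule of growing axons, stood at 630.5, 609.9, 458 and 436 CPM after PTX and 104, 74.4, 136 and 129 CPM after vehicle and rose by 2.27 ± 0.27 (edgeR adjusted p = 0.00126). For both genes the lowest PTX library lay more than 3-fold above the highest vehicle library. Atp9a, a phospholipid flippase of endosomes, stood at 450.4, 448, 269.9 and 321 CPM after PTX and 45.0, 42.6, 68.3 and 72.5 CPM after vehicle, a rise of 2.70 ± 0.35 (edgeR adjusted p = 0.00198). Ncdn, the neuronal protein neurochondrin, stood at 778, 862, 461 and 540.0 CPM after PTX and 127, 95.6, 129 and 215 CPM after vehicle, a rise of 2.22 ± 0.33. The 2 PTX libraries of the earlier date were the higher ones for each of these 4 genes. That order did not hold for the water channel gene Aqp1, at 438, 480.1, 361 and 489 CPM after PTX and 46.8, 71.3, 150.1 and 96.6 CPM after vehicle, which rose by 2.28 ± 0.34. Trim67, a ubiquitin ligase of neurons, was measured at 193, 192, 93.0 and 164 CPM after PTX and 11.5, 9.48, 30.4 and 28.7 CPM after vehicle and rose by 3.00 ± 0.44 (edgeR adjusted p = 0.00396). Each of these 6 genes passed with any single library left out.

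Several genes that rose had no or almost no counts after vehicle. Prokr2, a receptor for prokineticins, was at 27.1, 26.1, 16.6 and 42.5 CPM after PTX and 0, 0.117, 0 and 0 CPM after vehicle, which is 1204 counts over 4 PTX libraries and 1 count over 4 vehicle libraries. The ratio scaled to library size was 1171 (95 percent interval 209.7 to 46272), counting error only. Chrna4, a nicotinic acetylcholine receptor subunit, stood at 9.72, 11.7, 18.0 and 56.4 CPM after PTX with 1 count after vehicle, a ratio of 954 (95 percent interval 171 to 37709). Prokr2 and Chrna4 passed with any single library left out (edgeR adjusted p = 0.00516 and 0.0125 with all 8). P2rx2, a subunit of ATP-gated channels, had no count after vehicle and 15.7, 9.05, 12.8 and 15.6 CPM after PTX. Against a floor of 3 counts over the vehicle group it was at least 185-fold higher. On the same floor the T-type calcium channel gene Cacna1i (3.90, 2.37, 11.2 and 18.0 CPM after PTX) was at least 117-fold higher, the diacylglycerol kinase gene Dgkk (3.24, 4.39, 13.9 and 21.1 CPM) at least 140.3-fold and the sodium channel gene Scn4a (6.73, 13.4, 3.37 and 4.17 CPM) at least 99.8-fold. Cacna1i and Dgkk had their higher values in PTX replicates 3 and 4, the reverse of Dgkh. Calls of these 4 genes were fragile. They were lost for P2rx2 without PTX replicate 1, 2, 3 or 4 or vehicle replicate 1, 2, 3 or 4 (0.0522 to 0.107), Scn4a without PTX replicate 1, 2, 3 or 4 or vehicle replicate 1, 2, 3 or 4 (0.0509 to 0.116), Cacna1i without PTX replicate 1, 2 or 3 or vehicle replicate 1, 2, 3 or 4 (0.0553 to 0.0839) and Dgkk without PTX replicate 1, 2 or 3 or vehicle replicate 1, 2, 3 or 4 (0.0556 to 0.0848), in edgeR adjusted p.

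The genes with the smallest p-values among those that fell included genes of myelin and connective tissue. Plekhb1, a membrane-bound protein with a pleckstrin homology domain, stood at 109, 192, 120.2 and 138 CPM after PTX and 629, 729, 976 and 808 CPM after vehicle and fell by 2.49 ± 0.30 (edgeR adjusted p = 0.00135). With PTX replicates 3 and 4 alone the fall was 2.61. Itih5, a protein that binds hyaluronan, stood at 28.7, 65.7, 66.7 and 61.1 CPM after PTX and 273, 345, 571 and 316 CPM after vehicle, a fall of 2.76 ± 0.41. Rcn3, a calcium-binding protein of the endoplasmic reticulum, was at 7.97, 14.1, 15.5 and 9.55 CPM after PTX and 71.3, 93.1, 126 and 112 CPM after vehicle, a fall of 3.09 ± 0.47. Sepp1, the plasma selenium carrier selenoprotein P, stood at 171, 273, 273 and 349 CPM after PTX and 1338, 1068, 1275 and 1763 CPM after vehicle, a fall of 2.35 ± 0.38. The lowest vehicle value was more than 3-fold above the highest PTX value for each of these 4 genes. Apod, a lipid-binding lipoprotein of fibroblasts and injured nerve, stood at 49.7, 79.3, 188 and 77.4 CPM after PTX and 1948, 1719, 1837 and 5834 CPM after vehicle, a fall of 4.85 ± 0.78 in which vehicle replicate 4 was the highest library. Abca9, a transporter of the ABC family, fell by 4.79 ± 0.95, from 14.9, 47.7, 80.6 and 81.9 CPM after vehicle to 3.82, 2.99, 1.12 and 0.102 CPM after PTX. Each of these 6 genes passed with any single library left out. Mfap2, a microfibril protein of elastic fibres, had no count after PTX and 5.90, 5.27, 8.24 and 8.32 CPM after vehicle, at least 103-fold lower against a floor of 3 counts over the PTX group, and its call was lost without PTX replicate 1 or 2 (0.0663 to 0.0716) in edgeR adjusted p.

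**Figure D3:**
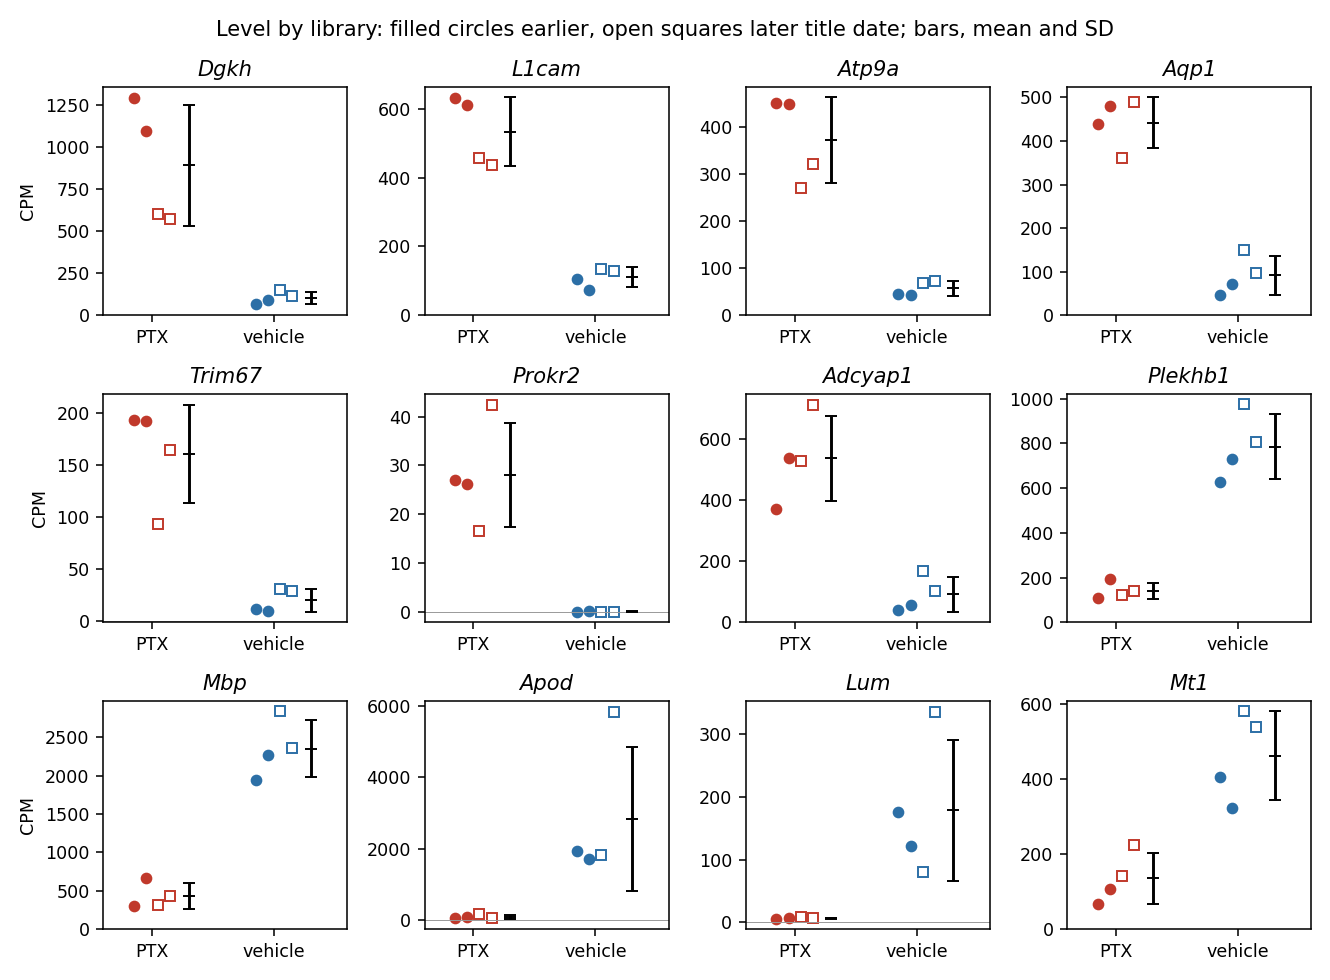
Level in CPM of 12 genes in each fl/fl library, with mean and SD of 4 libraries. Circles are replicates 1 and 2 and open squares replicates 3 and 4. The groups do not overlap for any of the 12, and Dgkh, L1cam and Atp9a are higher in the circles than in the squares after PTX.

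Of 13 neuropeptide precursors tested, 5 rose and none fell (38.5 percent against 4.96 percent over all genes). The median log2 difference was 2.33, against -0.0074 over all 14200 genes. With the 8 libraries alone 2 rose. Tac1, the precursor of substance P, stood at 1431, 1683, 1279 and 1225 CPM after PTX and 52.1, 211, 715 and 312 CPM after vehicle and rose by 2.12 ± 0.57 (edgeR adjusted p = 0.0403). Nmb, the precursor of the itch and pain peptide neuromedin B, stood at 241, 207, 95.1 and 88.7 CPM after PTX and 13.8, 16.4, 41.0 and 51.6 CPM after vehicle, a rise of 2.36 ± 0.55. Adcyap1, the PACAP precursor, stood at 369.5, 536, 527 and 711 CPM after PTX and 37.3, 53.7, 164 and 99.5 CPM after vehicle, and Calca, the CGRP precursor, at 4797, 5353, 3069 and 2766 CPM after PTX and 283, 449, 1166 and 1219 CPM after vehicle. Sst, the somatostatin precursor, had 0 counts in each vehicle library and 8.97, 1.49, 6.33 and 7.82 CPM after PTX, at least 85.6-fold higher. Gal, the galanin precursor that marks injured sensory neurons, stood at 103, 98.7, 139 and 169.5 CPM after PTX and 6.12, 47.4, 90.6 and 39.0 CPM after vehicle, without overlap, and its log2 difference of 1.48 ± 0.59 did not pass (edgeR adjusted p = 0.17). Calls were lost for Tac1 without PTX replicate 1, 2 or 3 or vehicle replicate 1, 2 or 4 (0.0579 to 0.12), Nmb without PTX replicate 1 or 2 or vehicle replicate 1 or 2 (0.0694 to 0.0839) and Sst without PTX replicate 1, 2 or 3 or vehicle replicate 1, 2, 3 or 4 (0.0594 to 0.106), in edgeR adjusted p, and those of Adcyap1 and Calca with no single library. The neuronal marker share differed between the groups as given above.

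Cyclic AMP signalling acts on several neuropeptide genes through the cyclic AMP response element (CRE), so the promoters of the 5 called precursors were searched for it. The full element TGACGTCA and its core TGACG were sought on both strands in the 250 bases before the start site (RefSeq, GRCm38.p6), and the full element holds a core on each strand. Full elements occur in 1.55 percent and cores in 17.8 percent of 32851 such windows. The window of Sst holds 1 full element, those of Calca, Tac1 and Adcyap1 cores alone, and that of Nmb neither. The windows of Sst (chr16:23890845-23891094, minus strand), Calca (chr7:114636358-114636607, minus strand) and Tac1 (chr6:7554811-7555060, plus strand) are shown 5′ to 3′ with the matches in capitals. They set the 1 full element of Sst beside windows with cores alone.
Sst: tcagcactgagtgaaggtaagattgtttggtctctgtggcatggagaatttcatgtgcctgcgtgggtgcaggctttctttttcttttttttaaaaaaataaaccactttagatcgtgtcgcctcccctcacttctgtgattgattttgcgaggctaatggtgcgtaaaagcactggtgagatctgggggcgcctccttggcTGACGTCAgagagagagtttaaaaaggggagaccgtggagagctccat
Calca: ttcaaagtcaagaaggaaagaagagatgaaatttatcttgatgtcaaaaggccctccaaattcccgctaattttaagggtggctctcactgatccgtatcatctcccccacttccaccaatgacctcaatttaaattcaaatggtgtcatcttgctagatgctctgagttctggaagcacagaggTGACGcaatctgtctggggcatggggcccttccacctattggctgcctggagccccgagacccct
Tac1: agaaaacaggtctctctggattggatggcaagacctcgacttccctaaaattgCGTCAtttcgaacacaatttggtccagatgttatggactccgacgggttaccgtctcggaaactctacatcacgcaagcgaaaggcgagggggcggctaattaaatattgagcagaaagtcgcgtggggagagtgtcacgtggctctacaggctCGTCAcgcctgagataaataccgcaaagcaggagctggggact
The element of Sst begins at position -48, the core of Calca at -65 and those of Tac1 at -197 and -43, counted from the start site. A match is a sequence and says nothing of binding in these cells.

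Among voltage-gated channels, 3 of 14 sodium channel genes rose and none fell (21.4 percent, median 1.51). Of 17 calcium channel genes 3 rose and none fell (17.6 percent, median 2.05), against 4.96 percent called over all genes. Scn10a, the nociceptor channel Nav1.8, stood at 1316, 1160.2, 493 and 303 CPM after PTX and 21.4, 30.8, 154 and 157 CPM after vehicle. The 2 PTX libraries of the earlier date were more than 2-fold above those of the later date. Cacna2d1, the auxiliary subunit bound by gabapentin, stood at 207, 209, 134 and 157 CPM after PTX and 19.9, 23.9, 58.7 and 52.1 CPM after vehicle and rose by 2.19 ± 0.56 (edgeR adjusted p = 0.0348). Cacna1b, the N-type channel that triggers transmitter release from nociceptors, stood at 79.2, 60.3, 45.4 and 72.4 CPM after PTX and 2.19, 4.68, 17.7 and 22.7 CPM after vehicle, a rise of 2.44 ± 0.68. Of 41 ligand-gated and sensory cation channel genes, 2 rose and 1 fell (7.32 percent against 4.96 percent over all genes, median 1.66). Trpv1, the heat and capsaicin channel, stood at 377, 441, 335 and 422 CPM after PTX and 27.5, 5.85, 126 and 67.3 CPM after vehicle, and its PTX values differed less among themselves than those of Scn10a. P2rx7, an ATP-gated channel of glia and macrophages, stood at 6.23, 8.17, 11.2 and 36.5 CPM after PTX and 69.8, 75.3, 60.9 and 55.6 CPM after vehicle and fell by 2.07 ± 0.54, with PTX replicate 4 above the other 3. Leaving out single libraries ended the calls of Scn10a without PTX replicate 1 or 2 or vehicle replicate 2 (0.0521 to 0.0613), Cacna2d1 without PTX replicate 1 or 2 or vehicle replicate 1 or 2 (0.0945 to 0.109), Cacna1b without PTX replicate 1, 2, 3 or 4 or vehicle replicate 1, 2 or 3 (0.0595 to 0.138) and P2rx7 without PTX replicate 1, 2 or 3 or vehicle replicate 1, 2, 3 or 4 (0.0546 to 0.132), in edgeR adjusted p. Of 23 opioid and other inhibitory receptor genes none passed. Their median was 2.46, and 10 of the 23 were higher after PTX without overlap, against 11.0 percent over all genes. Gabbr1, a subunit of the GABA-B receptor, stood at 219, 188, 141 and 110.4 CPM after PTX and 37.6, 46.5, 76.2 and 92.5 CPM after vehicle without overlap (log2 difference 1.38 ± 0.41, edgeR adjusted p = 0.0606, and 0.0462 without PTX replicate 4). Npy1r, the receptor Y1 for neuropeptide Y, stood at 79.2, 132, 85.5 and 285 CPM after PTX and 23.2, 61.5, 67.6 and 46.4 CPM after vehicle (log2 difference 1.55 ± 0.71, edgeR adjusted p = 0.237).

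Markers of the subtypes of sensory neuron were counted by subtype, and differences between subtypes were not tested. The neuropeptide genes given above are counted again here, Calca, Tac1 and Adcyap1 as peptidergic markers and Sst and Nmb as itch markers. Of 14 peptidergic nociceptor markers 4 rose (median 2.48), of 16 non-peptidergic ones 2 (median 3.09), of 11 itch neuron markers 3 (median 4.12) and of 10 markers of C low-threshold mechanoreceptors and cold neurons none (median 2.43). None of these fell. Over all genes 3.20 percent rose and 1.76 percent fell, so a list of 10 would often hold no call. The counts changed order with the 8 libraries alone, to 1 peptidergic, 5 non-peptidergic, 1 itch and no C low-threshold marker. The non-peptidergic median was 3.46 with PTX replicates 1 and 2 alone and 1.33 with replicates 3 and 4 alone, and the itch median 3.77 and 2.79. Ret, the signalling receptor for GDNF family ligands, stood at 905, 740.2, 467 and 407 CPM after PTX and 62.1, 23.2, 117 and 109 CPM after vehicle. Mrgprd, the receptor of non-peptidergic skin nociceptors, stood at 873, 630.3, 93.4 and 137 CPM after PTX and 34.6, 1.17, 82.4 and 56.3 CPM after vehicle, with PTX replicates 1 and 2 several-fold above replicates 3 and 4, and did not pass (edgeR adjusted p = 0.224). Th, tyrosine hydroxylase of C low-threshold mechanoreceptors, stood at 190.3, 225, 254 and 127 CPM after PTX and 0.109, 3.75, 36.6 and 40.5 CPM after vehicle and did not pass (edgeR adjusted p = 0.323). Osmr, the oncostatin M receptor of itch neurons, stood at 239, 184, 186 and 86.6 CPM after PTX and 39.0, 2.58, 44.0 and 16.6 CPM after vehicle and rose by 2.77 ± 0.69, a call lost without PTX replicate 1, 2 or 3 or vehicle replicate 1 or 4 (0.0512 to 0.0981) in edgeR adjusted p. Of 22 markers of myelinated mechanoreceptors and proprioceptors, 3 fell and none rose (median -0.18). Kcna1, a potassium channel subunit of the juxtaparanode, stood at 82.3, 119, 72.2 and 105 CPM after PTX and 369, 349, 411 and 479 CPM after vehicle. Ntrk2, the BDNF receptor TrkB, stood at 68.6, 116, 73.1 and 123 CPM after PTX and 298, 311, 437 and 288 CPM after vehicle and fell by 1.81 ± 0.37, a call lost without PTX replicate 1 (0.0535) in edgeR adjusted p. Ntrk2 is also expressed by glia, whose markers took a smaller share of counts after PTX. Whether that share bears on Ntrk2 was not tested.

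Of 16 genes tested for tubulin, the protein that the drug binds, 8 rose and none fell (50 percent against 4.96 percent over all genes, median 1.25). With the 8 libraries alone 4 rose. Tubb5 stood at 3424, 3219, 2209 and 2502 CPM after PTX and 841, 911, 1334 and 1036 CPM after vehicle and rose by 1.46 ± 0.25 (edgeR adjusted p = 0.00732). The neuronal isotype gene Tubb2a stood at 1120.2, 1115, 733 and 670.4 CPM after PTX and 93.7, 60.8, 254 and 239 CPM after vehicle, Tubb4 at 1358, 1412, 801 and 844 CPM after PTX and 172, 87.8, 261 and 448 CPM after vehicle and Tubb3 at 3600.4, 3456, 1693 and 1675 CPM after PTX and 445, 149.8, 682 and 1002 CPM after vehicle. These rose by 2.49 ± 0.46, 2.19 ± 0.42 and 2.19 ± 0.53. The broadly expressed Tubb5 had the smallest of these 4 differences. Reads of beta-tubulin genes can be shared between near-identical copies, so the split between isotypes is uncertain. Tubb2b, an isotype of growing neurons, stood at 362, 288, 180.2 and 157 CPM after PTX and 41.1, 19.7, 59.4 and 43.3 CPM after vehicle, a rise of 2.59 ± 0.57. The call was lost for Tubb3 without PTX replicate 1 or 2 or vehicle replicate 1, 2 or 3 (0.0533 to 0.0903) and Tubb2b without PTX replicate 1 or 2 or vehicle replicate 1 or 2 (0.0515 to 0.0613), in edgeR adjusted p.

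Of 50 genes of microtubule-associated proteins and stathmins, 15 rose and none fell (median 1.21). Only 1 of these 50 rose with the 8 libraries alone. Mtap1a and Mtap1b, which bind and stabilise axonal microtubules, stood at 443, 452, 325 and 350.0 CPM after PTX and 64.4, 101, 109.6 and 210.1 CPM after vehicle and at 5851, 6149, 3447 and 4061 CPM after PTX and 1235, 694, 1292 and 2616 CPM after vehicle. They rose by 1.69 ± 0.33 and 1.74 ± 0.38. Dpysl2 (CRMP2), which carries tubulin dimers to the growing axon tip, stood at 1770.0, 2113, 1259 and 1153 CPM after PTX and 438, 260.0, 511 and 721 CPM after vehicle, a rise of 1.71 ± 0.32. Stmn2, a stathmin that binds free tubulin, stood at 2507, 2379, 1354 and 1512 CPM after PTX and 284, 140.4, 509 and 696 CPM after vehicle. Of 58 motor and dynactin genes, 12 rose and 1, the dynein adaptor gene Hook3, fell (22.4 percent against 4.96 percent over all genes, median 0.77). Dctn1, the dynactin subunit that links dynein to microtubules, stood at 678, 658, 388 and 589 CPM after PTX and 179.7, 91.0, 127 and 195 CPM after vehicle. Kif5a, a neuronal kinesin of anterograde transport, stood at 821, 914, 505 and 553 CPM after PTX and 39.4, 55.3, 96.5 and 195 CPM after vehicle, and its light chain gene Klc1 at 2035, 1898, 1126 and 927 CPM after PTX and 265, 148, 467 and 557 CPM after vehicle, a rise of 2.06 ± 0.43. Genes of both transport directions were among those that rose. Of 15 intermediate filament genes 3 rose and none fell (median -0.12, and 0.59 with the 8 libraries alone). Synm, the filament protein synemin, stood at 260.0, 257, 190.0 and 214 CPM after PTX and 29.7, 35.8, 43.8 and 83.6 CPM after vehicle, a rise of 2.25 ± 0.46. Sync, the filament-binding protein syncoilin, stood at 33.1, 36.0, 18.9 and 21.8 CPM after PTX and 3.71, 0, 0.0824 and 0.249 CPM after vehicle, a rise of 4.76 ± 1.31. Calls did not hold for Mtap1b without PTX replicate 1 or 2 or vehicle replicate 1 (0.0578 to 0.0608), Klc1 without PTX replicate 1 or vehicle replicate 1 (0.0513 to 0.0522) and Sync without PTX replicate 1, 2 or 3 or vehicle replicate 2, 3 or 4 (0.0614 to 0.119), in edgeR adjusted p.

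**Figure D4:**
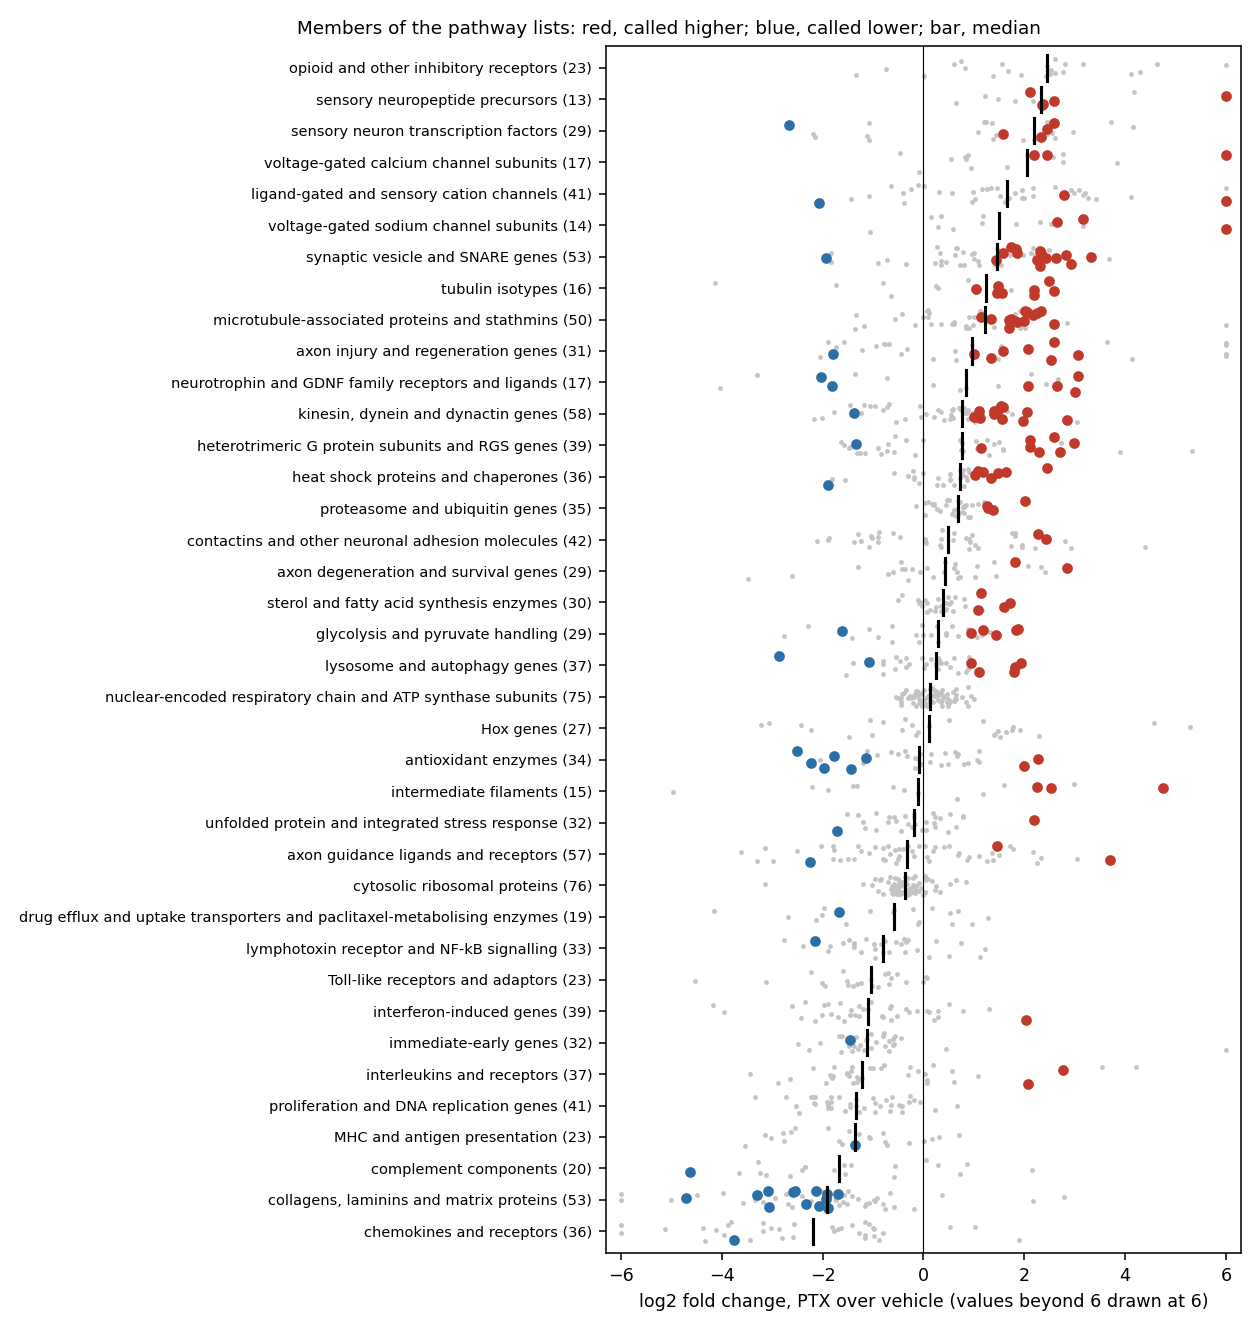
log2 fold change of PTX over vehicle for the tested members of 38 gene lists, number tested in brackets, ordered by median (bar). Members called higher are red and members called lower blue. Medians run from 2.46 for inhibitory receptors to -2.20 for chemokines and receptors, with the respiratory chain at 0.13, intermediate filaments at -0.12, axon guidance at -0.32 and ribosomal proteins at -0.37.

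Some genes of transmitter release rose as well. Of 53 synaptic vesicle and SNARE genes, 14 rose and 1, the endosomal SNARE gene Vamp8, fell (median 1.46), and with the 8 libraries alone 6 rose and 1 fell. Nsf, the ATPase that takes spent SNARE complexes apart, stood at 491, 350.2, 181 and 225 CPM after PTX and 70.9, 59.5, 48.9 and 81.3 CPM after vehicle, a rise of 2.26 ± 0.43 (edgeR adjusted p = 0.00973). Vamp2, the vesicle SNARE, stood at 682, 657, 488 and 494 CPM after PTX and 132, 133, 234 and 193 CPM after vehicle, and Syn1, which tethers vesicles to actin, at 689.8, 627, 445 and 425 CPM after PTX and 61.5, 14.3, 129 and 102 CPM after vehicle. Nsf, Vamp2 and Syn1 passed with any single library left out. The promoter of Syn1 is a known target of the repressor REST, which silences neuronal genes in other cells and binds the RE1 element. The left arm of RE1 was searched as TTCAGCACC on both strands and occurs in 0.301 percent of 32851 windows of 250 bases before a start site. The window of Syn1 (chrX:20920919-20921168, minus strand, GRCm38.p6, RefSeq) holds it at position -232 and a full CRE at -159, both in capitals.
Syn1: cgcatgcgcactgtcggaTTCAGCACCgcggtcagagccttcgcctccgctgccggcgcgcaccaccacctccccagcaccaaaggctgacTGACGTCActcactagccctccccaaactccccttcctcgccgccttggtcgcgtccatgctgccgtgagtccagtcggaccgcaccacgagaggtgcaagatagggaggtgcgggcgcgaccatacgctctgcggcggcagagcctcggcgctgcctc
The match describes the sequence, and no binding was measured.

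Adhesion and guidance genes were called at shares near that of all genes, 4.76 and 5.26 percent against 4.96 percent. Of 42 contactins and other neuronal adhesion genes 2 rose and none fell (median 0.48). L1cam, given above, was among them. Of 57 guidance genes 2 rose and 1 fell (median -0.32), and with the 8 libraries alone 1 rose. Robo2, a receptor for the Slit proteins, stood at 91.7, 109, 59.4 and 95.6 CPM after PTX and 0.437, 0.937, 4.37 and 21.3 CPM after vehicle and rose by 3.71 ± 0.95. Plxnb3, a receptor for semaphorins, stood at 23.8, 47.0, 58.7 and 50.8 CPM after PTX and 126, 199, 352 and 176 CPM after vehicle and fell by 2.24 ± 0.55. Calls were lost for Robo2 without PTX replicate 1 or 2 or vehicle replicate 1, 2 or 3 (0.0735 to 0.0909) and Plxnb3 without PTX replicate 1 or 2 or vehicle replicate 2 or 3 (0.0578 to 0.107), in edgeR adjusted p.

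Transcription factors of sensory neurons rose in 4 of 29 cases and fell in 1 (median 2.19), and in 2 cases with the 8 libraries alone. Klf7, which maintains TrkA expression in nociceptors, stood at 353, 361, 269.8 and 258 CPM after PTX and 87.7, 111, 112 and 105 CPM after vehicle, a rise of 1.58 ± 0.24 (edgeR adjusted p = 0.00479). Ebf1, an early B-cell factor also expressed in ganglia, stood at 216, 215, 107 and 124 CPM after PTX and 13.4, 10.8, 48.8 and 59.1 CPM after vehicle, a rise of 2.32 ± 0.48. Maf, a factor of mechanoreceptors and of macrophages, stood at 7.39, 10.2, 23.2 and 21.6 CPM after PTX and 113, 86.2, 74.1 and 122 CPM after vehicle and fell by 2.66 ± 0.48 (edgeR adjusted p = 0.0078). None of 27 Hox genes, which record position along the body axis, passed (median 0.11). Hoxa7 stood at 43.1, 41.4, 34.9 and 38.6 CPM after PTX and 44.6, 29.3, 42.4 and 30.3 CPM after vehicle, with the groups interleaved. Hoxa10 stood at 36.0, 37.4, 29.8 and 32.2 CPM after PTX and 18.7, 3.28, 18.8 and 18.6 CPM after vehicle (log2 difference 1.19 ± 0.69, edgeR adjusted p = 0.378).

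Heterotrimeric G protein and RGS genes rose in 7 of 39 cases and fell in 1 (median 0.77), and rose in 2 cases with the 8 libraries alone. Gnal, the stimulatory subunit first known from olfactory neurons, stood at 716, 585, 272 and 238 CPM after PTX and 52.1, 45.3, 119.5 and 81.9 CPM after vehicle and rose by 2.60 ± 0.46 (edgeR adjusted p = 0.00732). Gnao1, the abundant inhibitory subunit of neurons, stood at 897, 769, 366 and 345 CPM after PTX and 36.5, 25.1, 157 and 143 CPM after vehicle, a rise of 2.72 ± 0.58. Gnb1, a widely expressed beta subunit, stood at 2248, 2239.8, 1389.5 and 1312 CPM after PTX and 806, 682, 853 and 898 CPM after vehicle, a rise of 1.15 ± 0.27. Leaving out single libraries ended the calls of Gnao1 without PTX replicate 1 or vehicle replicate 1 (0.0513 to 0.0556) and Gnb1 without PTX replicate 1 or 2 or vehicle replicate 1 or 2 (0.064 to 0.0885), in edgeR adjusted p.

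Neurotrophin and GDNF family genes moved both ways, with 4 of 17 higher and 2 lower (median 0.85, and 1.35 with the 8 libraries alone). Ngfr, the low-affinity receptor p75, stood at 606, 1004, 488 and 526 CPM after PTX and 79.2, 55.6, 96.5 and 185 CPM after vehicle. Bdnf, a neurotrophin that nociceptors release, stood at 132, 169, 58.5 and 35.1 CPM after PTX and 8.96, 5.62, 10.0 and 22.5 CPM after vehicle and rose by 3.06 ± 0.81. Of 31 axon injury and regeneration genes 7 rose and 1 fell (median 0.95), and with the 8 libraries alone 4 rose and none fell (median 0.28). Lifr, a receptor of the interleukin-6 family, stood at 1108, 1051, 537 and 604 CPM after PTX and 137, 199, 212 and 236 CPM after vehicle, and Gap43, a growth cone protein, at 263, 328, 185 and 149 CPM after PTX and 4.15, 24.7, 85.6 and 46.4 CPM after vehicle. Atf3, the transcription factor induced by axotomy, stood at 49.9, 82.8, 162 and 138 CPM after PTX and 141, 125, 133 and 295 CPM after vehicle and did not pass (log2 difference -0.68 ± 0.52, edgeR adjusted p = 0.522). Its vehicle replicate 4 was the highest of the 8 libraries. Of 29 genes of axon degeneration and survival 2 rose and none fell (6.9 percent against 4.96 percent over all genes, median 0.42). With the 8 libraries alone 1 rose. Map3k12 (DLK), the kinase that starts the axonal stress response, stood at 79.1, 70.3, 57.2 and 82.2 CPM after PTX and 21.0, 18.9, 29.8 and 12.1 CPM after vehicle, a rise of 1.82 ± 0.40. Mapk10 (JNK3), its neuronal effector kinase, stood at 359.7, 343, 196 and 252 CPM after PTX and 4.81, 28.0, 35.6 and 91.7 CPM after vehicle, a rise of 2.85 ± 0.63. Nmnat2, the axon survival enzyme, stood at 208, 197, 158 and 121 CPM after PTX and 13.2, 0.937, 64.2 and 57.7 CPM after vehicle (edgeR adjusted p = 0.0799). Sarm1, the NAD-cleaving executioner of axon degeneration, stood at 60.2, 64.3, 31.4 and 6.91 CPM after PTX and 7.76, 0.117, 23.9 and 6.65 CPM after vehicle (edgeR adjusted p = 0.349). Neither passed, and the Sarm1 values overlapped. Nmnat2 passed without vehicle replicate 2 (edgeR adjusted p = 0.0469). The call was lost for Bdnf without PTX replicate 1 or 2 or vehicle replicate 1, 2 or 3 (0.0954 to 0.122), Gap43 without PTX replicate 1 or 2 or vehicle replicate 2 (0.0705 to 0.0801), Map3k12 without PTX replicate 1 or 2 or vehicle replicate 2 (0.0504 to 0.0613) and Mapk10 without PTX replicate 1 or 2 or vehicle replicate 2 (0.0519 to 0.0607), in edgeR adjusted p.

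Energy metabolism was described by 2 lists, and the difference between them was not tested. None of 75 nuclear-encoded subunits of the respiratory chain and ATP synthase passed, and their median difference was 0.13. Without overlap 3 of the 75 were higher and 3 lower, against 11.0 and 7.80 percent over all genes. Atp5b, the catalytic subunit of ATP synthase, stood at 1731, 1709, 1107 and 1198 CPM after PTX and 1057, 816, 1088 and 1162 CPM after vehicle (log2 difference 0.48 ± 0.25, edgeR adjusted p = 0.302). Of 29 genes of glycolysis and pyruvate handling, 5 rose and 1 fell (median 0.30), while 1 rose and 2 fell with the 8 libraries alone. Pfkp, the platelet-type phosphofructokinase that commits glucose to glycolysis, stood at 632, 540.3, 282 and 372 CPM after PTX and 118, 93.8, 118 and 169 CPM after vehicle and rose by 1.87 ± 0.35 (edgeR adjusted p = 0.00932). Aldoa, the aldolase of glycolysis, stood at 3450.1, 3404, 2623 and 2232 CPM after PTX and 1479.6, 1445, 1541 and 1645 CPM after vehicle, a rise of 0.94 ± 0.22, and its call was lost without PTX replicate 1 or 2 or vehicle replicate 1, 2 or 3 (0.0521 to 0.0918) in edgeR adjusted p. Of 30 sterol and fatty acid synthesis genes 4 rose and none fell (median 0.39), and none rose with the 8 libraries alone. Acly, which makes cytosolic acetyl-CoA, stood at 1407, 1316, 818 and 681 CPM after PTX and 189, 287, 485 and 323 CPM after vehicle, a rise of 1.72 ± 0.34. None of 76 cytosolic ribosomal protein genes passed (median -0.37), and Rpl4 stood at 325, 305, 303 and 320.0 CPM after PTX and 357, 317, 372 and 406 CPM after vehicle (edgeR adjusted p = 0.615).

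Genes of protein quality control were described by 4 lists. Of 36 heat shock and chaperone genes 7 rose and 1 fell (22.2 percent against 4.96 percent over all genes, median 0.73). With the 8 libraries alone 2 rose. Hspb8, a small heat shock protein whose mutations cause motor neuropathy, stood at 922, 797, 440.1 and 382 CPM after PTX and 102, 63.8, 112 and 188 CPM after vehicle and rose by 2.45 ± 0.44 (edgeR adjusted p = 0.00803). Its co-chaperone gene Bag3 stood at 480.0, 463, 306 and 247 CPM after PTX and 131, 67.3, 126 and 159 CPM after vehicle, a rise of 1.63 ± 0.37. Cryab, a small heat shock protein abundant in Schwann cells, stood at 57.2, 106, 77.2 and 204 CPM after PTX and 311, 425, 519.7 and 403 CPM after vehicle and fell by 1.90 ± 0.39. Small heat shock genes thus moved in opposite directions. Of 35 proteasome and ubiquitin genes 4 rose and none fell (median 0.69), and 1 rose with the 8 libraries alone. Uba1, the enzyme that activates ubiquitin, stood at 887, 855, 579 and 477 CPM after PTX and 263, 268, 273 and 350.2 CPM after vehicle, a rise of 1.28 ± 0.26. Of 37 lysosome and autophagy genes 5 rose and 2 fell (median 0.25), and 2 rose and 1 fell with the 8 libraries alone. Gabarapl1, an autophagosome protein, stood at 927, 893, 599 and 634 CPM after PTX and 146, 132, 209.6 and 382 CPM after vehicle, and Gaa, the lysosomal glucosidase, at 641, 626, 452 and 363 CPM after PTX and 132, 71.7, 178 and 221 CPM after vehicle, rises of 1.81 ± 0.34 and 1.79 ± 0.36. The autophagy receptor gene Sqstm1 stood at 2042, 1999.7, 1376 and 1349 CPM after PTX and 785, 626, 893 and 859 CPM after vehicle, a rise of 1.10 ± 0.24. Of 32 genes of the unfolded protein and integrated stress response 1 rose and 1 fell (6.25 percent against 4.96 percent over all genes, median -0.19). Asns, asparagine synthetase, stood at 322, 319, 155 and 115 CPM after PTX and 51.6, 52.7, 34.5 and 61.8 CPM after vehicle and rose by 2.18 ± 0.51. Ddit4, an inhibitor of mTORC1 induced by stress, stood at 7.14, 11.6, 14.3 and 17.1 CPM after PTX and 48.4, 44.4, 37.1 and 35.6 CPM after vehicle and fell by 1.72 ± 0.45. Calls did not hold for Bag3 without PTX replicate 1 or 2 or vehicle replicate 1 or 2 (0.0538 to 0.071), Cryab without PTX replicate 1 or 2 (0.0503 to 0.0531), Uba1 without PTX replicate 1 or 2 (0.0525 to 0.0558), Sqstm1 without PTX replicate 1 or 2 or vehicle replicate 2 (0.0502 to 0.0642), Asns without PTX replicate 1 or 2 or vehicle replicate 1, 2 or 3 (0.06 to 0.0791) and Ddit4 without PTX replicate 1, 2 or 3 or vehicle replicate 1, 2, 3 or 4 (0.0564 to 0.147), in edgeR adjusted p.

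Antioxidant genes mostly went the other way among those called, with 2 of 34 higher and 6 lower (median -0.09), and with none higher and 5 lower for the 8 libraries alone. Gpx3, the secreted glutathione peroxidase, stood at 405, 523, 509.8 and 758 CPM after PTX and 74.1, 82.2, 245 and 149.7 CPM after vehicle and rose by 2.00 ± 0.41 (edgeR adjusted p = 0.0124). Mt1 and Mt2, metallothioneins that bind zinc and copper, stood at 66.9, 108, 142 and 225 CPM after PTX and 407, 323, 580.4 and 539 CPM after vehicle and at 8.97, 16.4, 17.7 and 35.6 CPM after PTX and 54.1, 49.3, 113 and 92.3 CPM after vehicle. They fell by 1.77 ± 0.38 and 1.97 ± 0.46, and in both the PTX value of replicate 1 was the lowest and that of replicate 4 the highest. Sod3, the extracellular superoxide dismutase, stood at 19.5, 51.5, 32.0 and 56.3 CPM after PTX and 135, 154, 318 and 146 CPM after vehicle, a fall of 2.24 ± 0.50. Gsta4, a glutathione transferase for lipid peroxidation products, stood at 8.47, 14.0, 5.11 and 11.9 CPM after PTX and 45.8, 60.3, 71.7 and 46.2 CPM after vehicle, a fall of 2.50 ± 0.55. Calls were lost for Mt1 without PTX replicate 1 or 2 (0.0613 to 0.0636), Mt2 without PTX replicate 1, 2 or 3 or vehicle replicate 3 (0.0512 to 0.0836), Sod3 without PTX replicate 1 or vehicle replicate 3 (0.0521 to 0.0699) and Gsta4 without PTX replicate 1 (0.0705), in edgeR adjusted p. The shares of glial and fibroblast markers fell short of those after vehicle in the same libraries, as given above.

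Genes of glia and of the extracellular matrix were among those that fell. Of 19 Schwann cell markers 12 fell and none rose (median -2.29), and of 20 satellite glial markers 9 fell and none rose (median -1.69). Mal, a lipid raft protein of myelin, stood at 46.2, 83.4, 50.5 and 52.4 CPM after PTX and 244, 188, 391 and 285 CPM after vehicle and fell by 2.25 ± 0.39 (edgeR adjusted p = 0.00731). Mbp, myelin basic protein, stood at 306, 671, 318 and 431 CPM after PTX and 1939.8, 2268, 2837 and 2359 CPM after vehicle. Sox10, the master factor of peripheral glia, stood at 44.2, 70.2, 106 and 31.0 CPM after PTX and 382, 341, 517 and 439 CPM after vehicle, and the endothelin receptor gene Ednrb at 95.9, 228, 185 and 388 CPM after PTX and 879.9, 963, 1372 and 928 CPM after vehicle. Art3, a membrane ADP-ribosyltransferase family member, stood at 38.3, 64.4, 85.0 and 50.1 CPM after PTX and 349, 272, 379 and 328 CPM after vehicle and fell by 2.48 ± 0.39. The groups did not overlap for any of these 5 genes, and each passed with any single library left out. Of 53 collagen, laminin and other matrix genes 13 fell and none rose (median -1.92), and of 16 fibroblast markers 7 fell and none rose (median -3.34). Dcn, the proteoglycan decorin, stood at 73.1, 77.7, 127 and 74.7 CPM after PTX and 661, 472, 611 and 1709.9 CPM after vehicle, and Col1a2, a chain of type I collagen, at 18.1, 35.8, 37.6 and 56.7 CPM after PTX and 261, 225, 349 and 415 CPM after vehicle. Lum, the proteoglycan lumican, stood at 5.56, 6.77, 8.07 and 6.81 CPM after PTX and 175, 122, 80.4 and 335 CPM after vehicle. In the vehicle group replicate 4 was the highest library for all 3.

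Immune lists had medians below 0, and their values depended on the PTX date. Of 22 macrophage markers 3 fell and none rose (13.6 percent, median -2.56). The median was -4.88 with PTX replicates 1 and 2 alone and -1.76 with replicates 3 and 4 alone. Aif1, the macrophage protein Iba1, stood at 0.913, 0.791, 0.817 and 0.102 CPM after PTX and 21.7, 33.5, 5.85 and 47.9 CPM after vehicle. C1qb, a chain of complement C1q made by macrophages, stood at 2.82, 10.3, 38.2 and 1.12 CPM after PTX and 322, 370.3, 86.7 and 521 CPM after vehicle, with PTX replicate 3 highest in its group. Fcrls, a marker of resident macrophages, stood at 0.747, 0.791, 4.70 and 0.203 CPM after PTX and 99.6, 147, 13.3 and 255 CPM after vehicle, a fall of 6.32 ± 1.68. None of 19 neutrophil markers passed (median -1.74, with -4.29 for PTX replicates 1 and 2 alone and -0.87 for replicates 3 and 4 alone). S100a8 stood at 1838, 3499, 38191 and 19563 CPM after PTX and 80674, 65511, 25048 and 30395 CPM after vehicle, with overlap, and the 2 PTX libraries of the earlier date were the lowest (edgeR adjusted p = 0.518). Of 36 chemokine and receptor genes 1 fell and none rose (2.78 percent, median -2.20), and 2 fell with PTX replicates 1 and 2 alone (median -4.05). This was Cxcl12, a chemokine of fibroblasts and endothelium, at 2.41, 6.42, 8.68 and 0.102 CPM after PTX and 114, 27.4, 27.8 and 68.6 CPM after vehicle, a fall of 3.75 ± 0.87. Of 23 Toll-like receptor genes none passed (median -1.04, with -2.39 for PTX replicates 1 and 2 alone and -0.34 for replicates 3 and 4 alone), and Tlr2 stood at 19.1, 41.4, 290.1 and 191 CPM after PTX and 549, 683, 196 and 216 CPM after vehicle (edgeR adjusted p = 0.498), again lowest in PTX replicates 1 and 2. Of 23 MHC and antigen presentation genes 8 fell with PTX replicates 1 and 2 alone (median -2.38). With all libraries 1 fell (4.35 percent, median -1.35), B2m, the light chain of class I molecules, at 656, 719, 1431 and 1439.9 CPM after PTX and 3313, 3592, 1679.6 and 2271 CPM after vehicle. Of 39 interferon-induced genes 1 rose (2.56 percent, median -1.10), and 3 fell with PTX replicates 1 and 2 alone. It was Stat2, the interferon signalling factor, at 107, 114, 49.3 and 54.9 CPM after PTX and 10.6, 17.0, 21.4 and 30.3 CPM after vehicle, a rise of 2.03 ± 0.44. Leaving out single libraries ended the calls of Aif1 without PTX replicate 1, 2 or 3 or vehicle replicate 2 (0.0502 to 0.0783), C1qb without PTX replicate 1 or 2 or vehicle replicate 1, 2 or 4 (0.0525 to 0.104), Fcrls without PTX replicate 1, 2 or 4 or vehicle replicate 1, 2 or 4 (0.0769 to 0.153), Cxcl12 without PTX replicate 1 or 2 or vehicle replicate 1 (0.0588 to 0.0885), B2m without PTX replicate 1, 2 or 3 or vehicle replicate 1, 2 or 4 (0.0512 to 0.167) and Stat2 without PTX replicate 1 or 2 or vehicle replicate 1 (0.054 to 0.06), in edgeR adjusted p.

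Of 33 genes of lymphotoxin receptor and NF-kB signalling 1 fell and none rose (3.03 percent against 4.96 percent over all genes, median -0.80). It was the floxed gene itself. With PTX replicates 1 and 2 alone 3 fell (median -2.40). Ltbr stood at 6.06, 8.61, 12.2 and 15.6 CPM after PTX and 42.4, 51.4, 48.3 and 46.8 CPM after vehicle and fell by 2.15 ± 0.52 (edgeR adjusted p = 0.0273), without overlap. Its call was lost without PTX replicate 1, 2 or 3 or vehicle replicate 1, 2 or 3 (0.0513 to 0.107) in edgeR adjusted p. Ltbr is expressed by fibroblasts and myeloid cells, whose markers took smaller mean shares of counts after PTX. The macrophage and neutrophil shares overlapped between the groups, and whether any share bears on Ltbr was not tested. Of 32 immediate-early genes 1 fell and none rose (3.1 percent, median -1.13), and 7 fell with PTX replicates 1 and 2 alone (median -2.62). Dusp6, a phosphatase that limits ERK signalling, stood at 33.5, 47.5, 103 and 103 CPM after PTX and 199.6, 197, 187 and 208 CPM after vehicle and fell by 1.46 ± 0.39, a call lost without PTX replicate 1 or 2 or vehicle replicate 1, 2, 3 or 4 (0.0699 to 0.145) in edgeR adjusted p. Fos, induced by activity and also by cell dissociation, stood at 336, 629, 1499.7 and 1787 CPM after PTX and 2947, 3481, 2312 and 2819.5 CPM after vehicle and did not pass (edgeR adjusted p = 0.146, and 0.0356 with PTX replicates 1 and 2 alone). Of 41 proliferation genes none passed (median -1.33). Of 19 genes of drug transport and paclitaxel metabolism 1 fell and none rose (5.26 percent, median -0.59), Cyp2j6, an arachidonic acid epoxygenase, at 53.7, 85.1, 79.6 and 139.9 CPM after PTX and 331, 211, 320.2 and 276 CPM after vehicle. It fell by 1.67 ± 0.39, a call lost without PTX replicate 1, 2 or 3 or vehicle replicate 1 or 3 (0.0502 to 0.0916) in edgeR adjusted p.

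Since the share of neuronal markers differed between the groups, counts were also set against it. For each gene the count per 1000 counts of the 19 sensory neuron markers was taken in each library, as a description with no test. Where a gene was itself 1 of the 19, such as Avil or Tubb3, its own counts were left out of the sum. On this scale 88 of 14200 genes lay higher in every PTX library than in any vehicle library (0.620 percent) and 6284 lay lower (44.3 percent). The median log2 difference of the 19 markers was 2.21, so a gene with an unchanged CPM tends to lie lower on this scale. Avil, the sensory neuron protein advillin and itself a member of the 19, lay at 60.1, 53.5, 52.1 and 48.4 after PTX and 30.5, 25.1, 31.0 and 26.8 after vehicle per 1000. Ret lay at 40.3, 36.0, 39.4 and 34.5 after PTX and 21.8, 20.2, 25.8 and 15.5 after vehicle per 1000 and Syn1 at 30.7, 30.5, 37.6 and 36.0 after PTX and 21.6, 12.4, 28.3 and 14.5 after vehicle per 1000. Robo2 lay at 4.09, 5.28, 5.02 and 8.09 after PTX and 0.153, 0.816, 0.958 and 3.02 after vehicle per 1000. The groups did not overlap for any of these 4 genes, with the PTX libraries higher. By contrast Calca lay at 214, 260.3, 259 and 234 after PTX and 99.4, 391, 256 and 173 after vehicle per 1000, Adcyap1 at 16.5, 26.0, 44.5 and 60.2 after PTX and 13.1, 46.8, 36.1 and 14.1 after vehicle per 1000 and Trpv1 at 16.8, 21.5, 28.3 and 35.7 after PTX and 9.66, 5.10, 27.7 and 9.55 after vehicle per 1000, and these overlapped. Of 14 peptidergic markers none lay higher without overlap, and of 16 non-peptidergic markers 2 did. The pan-neuronal Tubb3, also one of the 19, lay at 191, 202, 167 and 165 after PTX and 185, 150.0, 176 and 166 after vehicle per 1000, and its groups were interleaved. Tubb5 lay at 153, 157, 187 and 212 after PTX and 295, 793, 293 and 147 after vehicle per 1000, and Gnb1, which is expressed in many cell types, at 100.2, 109, 117 and 111 after PTX and 283, 594, 187 and 127 after vehicle per 1000, lower after PTX without overlap. Of 16 tubulin genes none lay higher and 5 lower without overlap, a smaller share lower than the 44.3 percent over all genes. Of 53 synaptic vesicle and SNARE genes 1 lay higher and 11 lower, also a smaller share lower. For 75 respiratory chain genes the numbers were none and 72, and for 76 ribosomal protein genes none and 57. The median log2 differences of these 2 lists in CPM (0.13 and -0.37) lay below 2.21, as did those of the tubulin (1.25) and SNARE (1.46) lists. Lower ratios thus follow from the scale. Such ratios give no level per neuron.

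**Figure D5:**
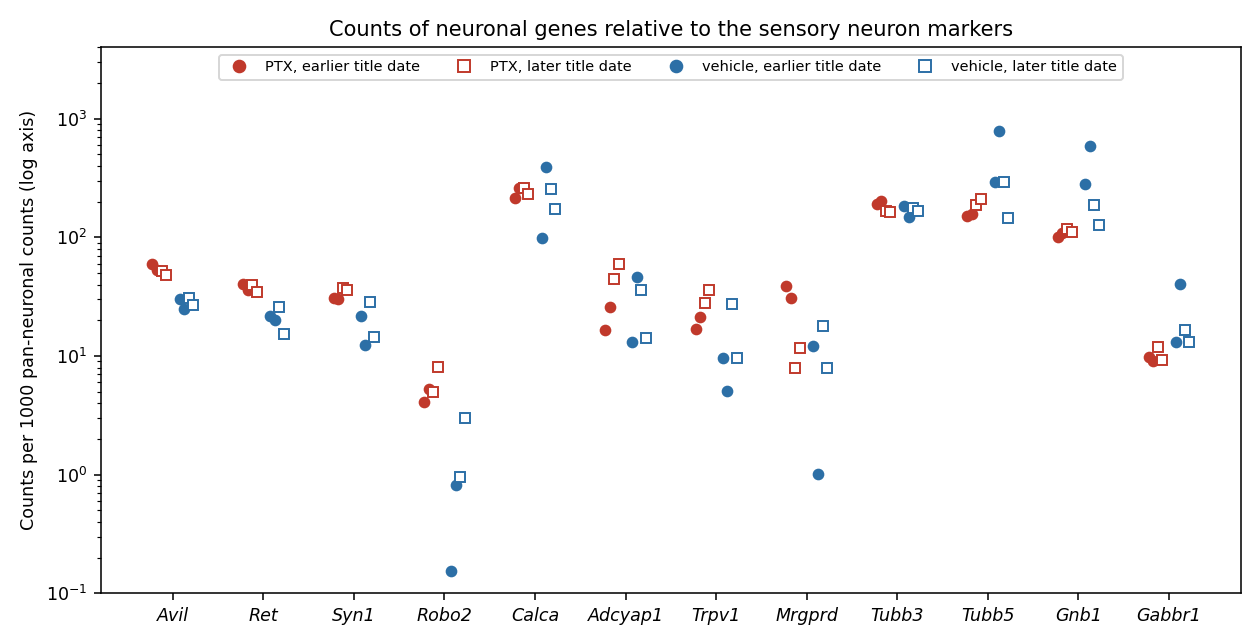
Counts of 12 genes per 1000 counts of the sensory neuron markers (log axis) in each fl/fl library. For Avil and Tubb3 their own counts are left out of the marker sum. Avil, Ret, Syn1 and Robo2 are higher in each PTX library than in any vehicle library, Gnb1 and Gabbr1 are lower, and Calca, Adcyap1, Trpv1, Mrgprd, Tubb3 and Tubb5 overlap.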

How the data were processed

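Stranded poly(A) RNA-seq libraries of sorted lumbar DRG cells were deposited by the authors as raw counts per gene, without normalization. Per the submitters' processing notes, bcl2fastq, TopHat2 and HTSeq were used with build mm9, without stated versions. Counts on genes were 35.9 to 43.5 percent of the counted alignments in the 8 libraries, and the 5 HTSeq summary lines were left out.

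Genes were filtered with filterByExpr (14200 of 22609 kept), and TMM scaling and the robust quasi-likelihood F test of edgeR 4.0.16 (R 4.3.3) were applied in 1 model of the 16 libraries, with 12 residual degrees of freedom and a threshold of 0.05. Dispersion gave a common coefficient of variation between libraries of 0.939. The standard error of a fold change is its size divided by the square root of F. Ratios to neuronal markers used the summed counts of 19 genes, without a gene's own counts where it was a member. Folds against a group without counts used a floor of 3 counts over the group, and ratios with 1 to 3 counts carry a 95 percent interval. Both cover counting error only.

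The members and the 54 gene lists (16 of cell type markers, 38 of pathways) were chosen with earlier results of these data known. Of 1661 list entries, 30 were matched through an older or newer symbol and 11 were not matched. Symbols are those of the files, so Mtap1a, Mtap1b, Tubb4 and Sepp1 are older names. Genes were named by rule. The rule took Ltbr and Scn10a, up to 10 genes in each direction by smallest p and by largest fold (passed, 5 CPM or more as mean of the higher group, no overlap), and for each list up to 4 called members by smallest p or the 2 most abundant where none passed. Part of these is given, and a few are not reported here. Mt2, Bdnf, Atf3, Sarm1, Nmnat2, Fos, Gal, Mrgprd and Tubb3 were added after their values were seen. Of 162 genes named, 125 had an entry in the RefSeq promoter table. No 2 libraries of a group were alike within counting error (lowest chi-square per degree of freedom 19.5). Libraries of the same title date were closer, at 19.5 and 102 for PTX and 68.6 and 76.0 for vehicle. Across dates the values were 193 to 260 for PTX and 149 to 177 for vehicle. The tests treated the 4 libraries of a group as independent.

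The analysis was tested on simulated data. Those data held no difference between title dates, so the test does not cover the date differences given above. Alternatives were RLE scaling, testing without a filter or with at least 5 CPM in 4 libraries, the 8 libraries alone, a replicate block, DESeq2 1.42.0, limma-voom with quality weights (limma 3.58.1), each PTX or vehicle date alone and each library left out in turn. The knockout libraries stayed in the model in each of these but the 8 libraries alone.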

Additional observations from a re-analysis of the deposited data

Results flagged for a closer look

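Groups of 4 libraries were examined for a highest or lowest library far from its neighbour. The gap, as a share of the group's range, was set against Dixon's critical value at 95 percent. The list held 260 groups, and those without any count, such as P2rx2 after vehicle, were passed over. The value was exceeded 20 times, and chance alone flags about 1 in 20 groups. A single count in vehicle replicate 2 set Prokr2 and Chrna4 apart (1 for each). In the vehicle group replicate 4 was the high library for Apod (0.944), Dcn (0.847), Atf3 (0.905), Uba1 (0.892) and the fibroblast marker share (0.871). Vehicle replicate 3 was high for Ntrk2 (0.847), Ednrb (0.831) and Sod3 (0.892), vehicle replicate 1 for Sync (0.933), and vehicle replicate 2 was low for Hoxa10 (0.990). After PTX, replicate 1 was low for Itih5 (0.852). Replicate 2 was high for Mal (0.832) and for the Schwann cell marker share (0.900). Replicate 3 was high for Dcn (0.914) and Fcrls (0.869). Replicate 4 was high for P2rx7 (0.834) and the share of pericyte and smooth muscle markers (0.838), and low for Aif1 (0.849).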

How the results depend on the processing

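The number of genes called (704, 454 higher and 250 lower) moved with the tool and the libraries used. It was 1517 with DESeq2 (841 higher, 676 lower), 5283 with limma-voom (2669 and 2614) and 475 with the 8 libraries alone (244 higher). With PTX replicates 3 and 4 alone it was 5 (2 higher, 3 lower), with vehicle replicates 3 and 4 alone 41 (12 and 29), and 91 were lower with vehicle replicates 1 and 2 alone and 384 with PTX replicates 1 and 2 alone. Leaving out each library gave 177 to 845 genes, 130 to 502 higher and 47 to 343 lower. The share of calls that were higher, 454 of 704, was 244 of 475 with the 8 libraries alone and 374 of 758 with PTX replicates 1 and 2 alone. The cause was not tested.

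With replicate number as a block 361 genes passed (231 higher, 130 lower). Libraries of the same number correlated at -0.17, -0.20, -0.18 and -0.17 in their deviations from the group means. Those of different numbers ran from -0.23 (PTX replicate 1 with vehicle replicate 2) to 0.28 (PTX replicate 1 with vehicle replicate 4). These values therefore cannot settle whether libraries are paired. The labels give only a shared number, and no pairing was used.

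Of the 99 called genes given with values, 97 passed with RLE scaling, 99 with DESeq2 and with limma-voom, 68 with the 8 libraries alone, 72 with the block, 82 with PTX replicates 1 and 2 alone and 4 with PTX replicates 3 and 4 alone. The median log2 difference of all genes was -0.067 with RLE scaling, 0.24 with limma-voom, -0.14 and -0.11 with the earlier and the later PTX date alone and 0.12 with the earlier vehicle date alone. List medians near 0 can change sign with such shifts, and those of immune and nociceptor lists moved with the PTX date as given above. Of 15 genes given as not passing, 11 passed with limma-voom and 2 with DESeq2. Of the 704 called genes 690 differed by more than 2-fold, so smaller changes were rarely called with 4 libraries in each group.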
